A study of Mus musculus with 32 samples.

Results

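Collagens are the fibre and sheet proteins of the extracellular matrix, and the genes described here are the 40 rows of the deposited expression table whose gene name is that of a collagen chain (Col, a type number, the letter a and a chain number), of 18124 genes in all. They were sorted by textbook class into 10 fibrillar, 8 basement membrane and 22 other collagens. A mean of at least 10 over the libraries was asked for testing, which 37 passed: all 10 fibrillar, all 8 basement membrane and 19 of the 22 other collagens. Col8a2, Col9a2 and Col10a1 lay under it and were not tested, with means of 9.43, 5.98 and 5.37.

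RNA was sequenced from biopsies of subcutaneous white fat of 32 wild-type C57BL/6J mice. Of these, 16 had had their stomach reduced to a narrow tube 9 days earlier (vertical sleeve gastrectomy, VSG) and 16 had had a sham operation. Biopsies fell at 4 times of day, with 4 animals of each surgery at ZT1, ZT7, ZT13 and ZT19, where zeitgeber time (ZT) counts hours from the start of light. Mice of both groups were given liquid diet before the operation, were fasted overnight, stayed on liquid diet until day 3 and could then choose between it and a high-fat diet. Neither age nor sex is given, and the weight loss recorded for each animal carries no unit.

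All collagens are built from chains that wind around each other into a rigid rod, with prolines and lysines hydroxylated in the endoplasmic reticulum before secretion. Fibrillar collagens (types I, III, V and XI among them) pack into cables that carry tension. Type IV collagen forms the sheet of the basement membrane, which in fat surrounds each adipocyte and each capillary, and types XV and XVIII lie in or next to that sheet. Type VI collagen makes beaded filaments that link adipocytes and basement membranes to the fibrils. The study's design asks how these genes differ by surgery, by time of day and with weight loss.

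Values are the deposited normalized read counts. Fold changes come from log2(value + 1), a scale on which low genes change by less than their true fold. A gene is said to have risen or fallen where limma's adjusted p over all 15588 tested genes was under 0.05. Reads assigned to genes ran from 15.7 to 37.2 in units of 1e6 per library. Adipocyte genes were abundant, Adipoq with a mean value of 107250.0 ± 15605 in the sham group (SD, n = 16). Libraries were not alike in their other cells: 4 stood apart with high B cell markers (1 sham, 3 VSG) and 7 others with high skeletal muscle markers (2 sham, 5 VSG). VSG ZT1 replicate 4, not counted as high, had a mean log2 B cell marker level of 9.00. The 4 B-cell-high libraries had 11.23 to 12.55, and the median of the other 28 was 5.99. A sham animal at ZT19 (replicate 4) also stood apart within its group, with 0.644% of its reads in collagen genes where the other 15 sham libraries had at least 1.12%, and it held the lowest sham value of 20 of the 40 collagens. Part of the results that rest on such libraries are given with and without them. A call given without such a run was not necessarily kept in it. Leaving out both marker sets keeps 13 sham and 8 VSG libraries, with VSG replicate 4 alone at ZT1 and VSG replicate 3 alone at ZT19. Whether a call lost in that run reflects the fewer animals or the other cells was not tested. Nothing in the labels says more about the animals, and in whole tissue fewer cells of a type cannot be told apart from less RNA per cell.

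Collagen genes took a smaller share of the reads after VSG. The share averaged 1.43% with an SD of 0.289 in 16 sham libraries and 0.902% with an SD of 0.202 in 16 VSG libraries. Basement membrane collagens went from 0.577% ± 0.145 to 0.316% ± 0.0577 of all reads, fibrillar collagens from 0.616% ± 0.154 to 0.437% ± 0.125 and other collagens from 0.236% ± 0.0539 to 0.149% ± 0.0337. Of the 16 VSG libraries, 15 lay below the lowest of the 15 other sham libraries. Of the collagen reads themselves, basement membrane genes held 40.3% ± 5.90 after sham surgery and 35.6% ± 4.25 after VSG.

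Per kilobase of exon, the level after sham surgery was highest for Col4a1, at a normalized value of 8297 per kb, and for Col4a2, at 8112 per kb. Col3a1 followed at 6683 per kb, Col6a1 at 4672, Col1a1 at 4292 and Col15a1 at 4045 per kb. The type IV chains Col4a5, Col4a4 and Col4a3 were far lower, at 20.3, 16.7 and 5.39 per kb. Fat thus held mostly the α1 and α2 chains of type IV collagen, and Col11a1, the least abundant over all libraries, had 0.987 per kb.

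The first comparison was VSG against sham over the 4 times. Of the 37 tested collagens 23 differed, 18 lower and 5 higher after VSG, with a median log2 fold change of -0.37 against 0.01 over all genes. As background, 39.2% of all tested genes differed, 20.9% being lower and 18.3% higher. Basement membrane collagens had 7 of 8 lower and none higher, with a median of -0.93. Fibrillar collagens had 4 of 10 lower and 1 higher, with a median of -0.34, and other collagens 7 of 19 lower and 4 higher, with a median of -0.20. The 18 lower genes had the same sign at all 4 times, as had 4 of the 5 higher genes. These genes were called on the mean of the same 4 differences, so the shared sign is no separate support. Without the sham animal ZT19 replicate 4 there were 26 calls, 20 lower and 6 higher. Without the 11 libraries high in either marker list 16 remained, 14 lower and 2 higher. The share of all genes called in both of these runs is not given here, so a change in these counts is no result about collagens.

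**Figure D1:**
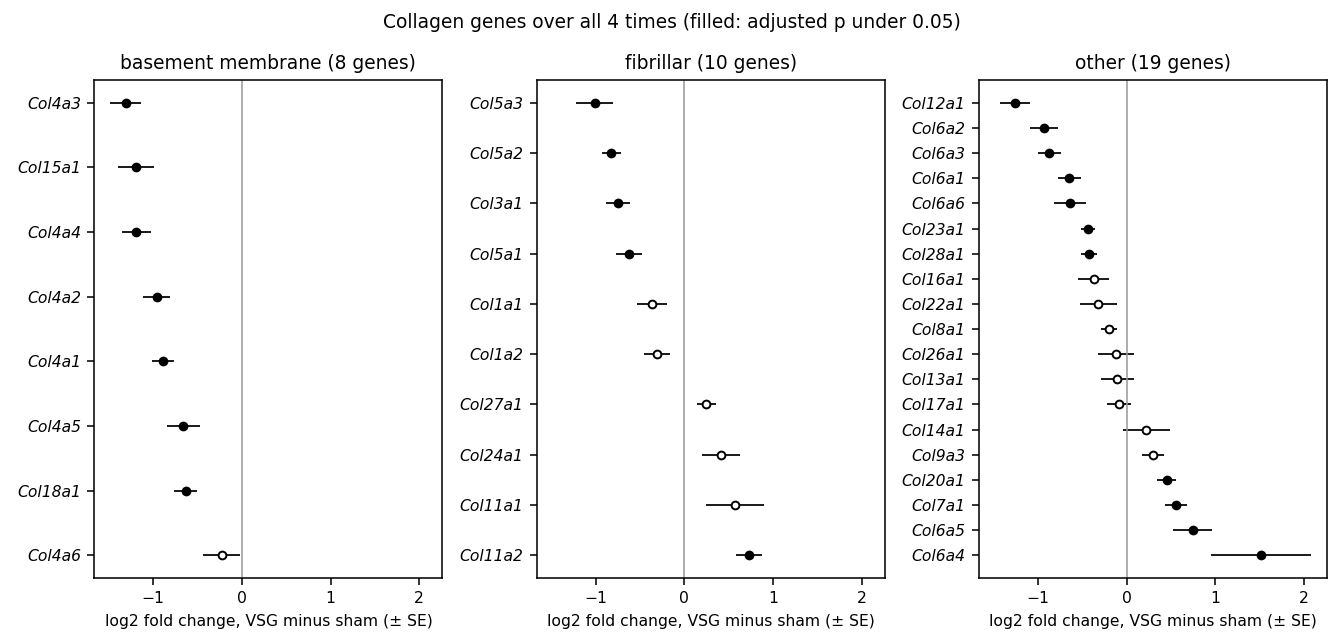
Log2 fold change of each tested collagen over all 4 times (VSG minus sham, ± SE), in 3 classes. Filled points have an adjusted p under 0.05; basement membrane chains lie below 0 from Col4a6 at -0.23 to Col4a3 at -1.31, while the other classes hold genes on both sides.

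Among the basement membrane collagens the 6 type IV genes lie as 3 pairs that face away from each other from neighbouring starts (mm10, starts as deposited with the values). Col4a1 (ENSMUSG00000031502, chromosome 8, 11198423 to 11312826, minus strand) and Col4a2 (ENSMUSG00000031503, chromosome 8, 11312805 to 11449287, plus strand) share 22 bases at their starts. Between Col4a4 (ENSMUSG00000067158, chromosome 1, minus strand) and Col4a3 (ENSMUSG00000079465, chromosome 1, plus strand) lie 71 bases, and between Col4a6 and Col4a5 on chromosome X lie 1308 bases. The first 2 gaps are shown because the genes on their sides fell together (RefSeq sequence of GRCm38.p6, plus strand, 5′ to 3′). In the first, chr8:11312801-11312830, capitals mark the 22 bases that belong to both genes. The second is chr1:82586850-82586920.
Col4a1 and Col4a2: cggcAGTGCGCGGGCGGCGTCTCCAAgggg
Col4a4 and Col4a3: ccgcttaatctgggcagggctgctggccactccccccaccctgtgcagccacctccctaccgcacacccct

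The shared Col4a1 and Col4a2 start holds GGGCGG, the GC box, and the stretch between Col4a4 and Col4a3 holds none of the 4 motifs searched on both strands. In windows from 250 bases before to 50 after a start, GGGCGG was found in 21 of the 32 collagen genes with a RefSeq window and in 35.7% of all 32851 windows. CCCTCCCC was found in 10 of the 32, Col4a1, Col4a2 and Col4a5 among them, and in 10.8% of all windows. CCAAT was found in 11 of the 32 and in 37.4% of all windows, and TATAAA in 5 of the 32 and in 13.6%. No motif holds another, and a match is only a match of letters.

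Col4a1 and Col4a2 encode the chains of the type IV trimer found in nearly all basement membranes. For Col4a1 the lowest, median and highest values were 28381, 64417 and 85586 after sham surgery and 24129, 33160.0 and 41086 after VSG. All 16 VSG values lay below the sham median, and 13 lay below every sham animal but the ZT19 replicate 4. Col4a1 fell 1.86-fold (log2 fold change -0.89 ± 0.12, adjusted p = 8.88e-06). Col4a2 ran from 19744 through 53451 to 77450 after sham surgery and from 19009 through 26526 to 35109 after VSG, with the same 2 counts of animals, and fell 1.95-fold (-0.96 ± 0.15, adjusted p = 3.27e-05).

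The rarer trimer of Col4a3, Col4a4 and Col4a5 is best known from the kidney filter, where mutations cause Alport syndrome. For Col4a3 the lowest, median and highest values were 22.3, 53.5 and 99.1 after sham surgery and 8.46, 17.4 and 50.6 after VSG. The ranges overlapped in part, with 11 of 16 VSG animals below every sham animal, and Col4a3 had the lowest log2 fold change of the 37 genes (-1.31 ± 0.18, 2.48-fold, adjusted p = 6.94e-06). Col4a4 ran from 75.5 through 184 to 233 after sham surgery and from 39.1 through 79.0 to 131 after VSG, and all 16 VSG animals lay below all sham animals but ZT19 replicate 4. It fell 2.28-fold (-1.19 ± 0.17, adjusted p = 1.1e-05). Exons of Col4a3 share 563 bases, 5.65% of its length, with the opposite-strand gene C430014B12Rik, and the labels do not say if reads were counted by strand.

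Col4a5 fell 1.58-fold (-0.66 ± 0.18, adjusted p = 0.00569), a call lost when the libraries high in either marker list were left out (-0.54, adjusted p = 0.1). Its partner Col4a6, with 13.1 ± 5.69 in sham and 11.0 ± 4.77 in VSG animals (mean ± SD), did not pass (-0.23 ± 0.21, adjusted p = 0.396). Col15a1 and Col18a1 encode the multiplexins, whose C-terminal pieces include endostatin. Col15a1 (ENSMUSG00000028339, chromosome 4, 47208161 to 47313167) ran from 7630.05 through 26666 to 37490.4 after sham surgery and from 5063 through 10630.2 to 17386 after VSG. It fell 2.29-fold (log2 standard error 0.20, adjusted p = 6.41e-05), with every VSG value below the sham median. Col18a1 fell less far (-0.64 ± 0.13, adjusted p = 0.000448), and the ratio of the pair is taken up with the other chain ratios.

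**Figure D2:**
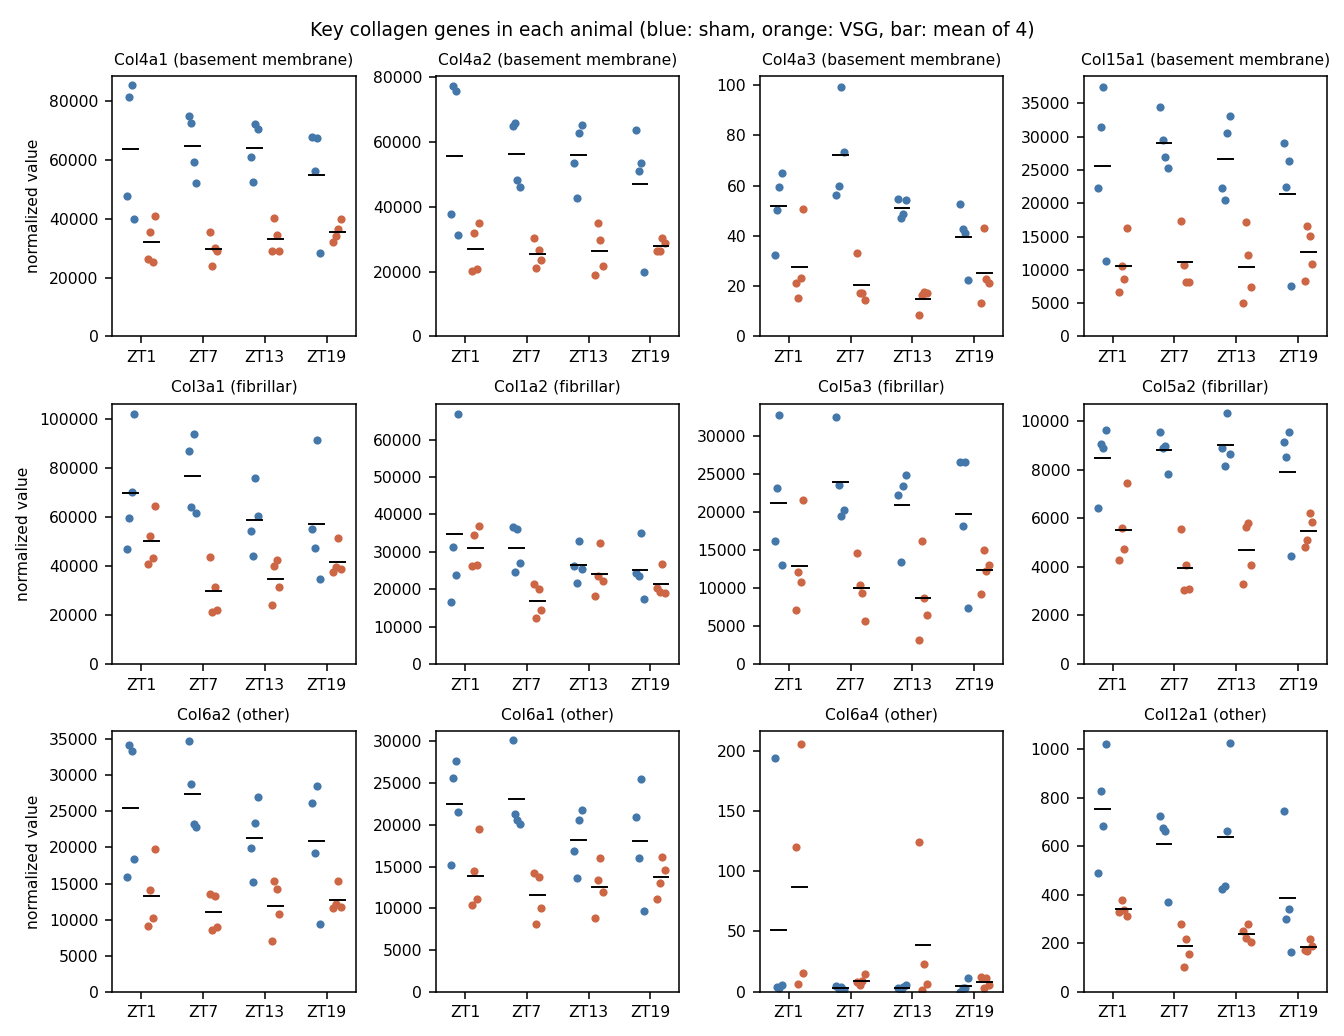
Normalized value of 12 collagen genes in each of the 32 animals (4 points per surgery and time, blue for sham, orange for VSG, bars at the mean of 4), each axis from 0. Col4a1 at ZT7 lies between 52233 and 74967 after sham surgery and between 24129 and 35546 after VSG, and the sham animal at ZT19 that sits among the VSG animals is replicate 4.

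The fibrillar collagens did not move as a block. Col3a1, whose product co-assembles with type I collagen, and the 3 type V chains, which start and thin the fibrils, fell after VSG. Col3a1 (ENSMUSG00000026043, chromosome 1, 45311538 to 45349706) ran from 34778 through 60932 to 102298 after sham surgery and from 21144 through 39812 to 64745 after VSG. Of the VSG animals 15 lay below the sham median, and Col3a1 fell 1.68-fold (-0.75 ± 0.14, adjusted p = 0.000167). Its neighbour Col5a2 (chromosome 1, 45374321 to 45503282) ran from 4472 through 8902 to 10368 after sham surgery and from 3041 through 4973 to 7476 after VSG, and 15 of 16 VSG animals lay below every sham animal but ZT19 replicate 4. Col5a2 fell 1.77-fold with a small error (-0.82 ± 0.11, adjusted p = 6.57e-06).

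Col5a3, the type V chain with the highest values here, ran from 7368 through 22634 to 32770.4 after sham surgery and from 3188 through 10586 to 21628 after VSG. The ranges overlapped widely, but every VSG animal lay below the sham median, and Col5a3 fell 2.02-fold (-1.01 ± 0.21, adjusted p = 0.000528). Col5a1 fell 1.54-fold (-0.63 ± 0.14, adjusted p = 0.00137), a call lost without the libraries high in either marker list (-0.51, adjusted p = 0.0555).

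The type I chains, the bulk protein of most fibrils, did not pass the test. Col1a2 (ENSMUSG00000029661, chromosome 6, 4504814 to 4541544) ran from 16683 through 25800.2 to 66900.2 after sham surgery and from 12170 through 21675 to 37039 after VSG. Its log2 fold change was -0.31 ± 0.14 (adjusted p = 0.0889) and that of Col1a1 was -0.37 ± 0.17 (adjusted p = 0.0921). Both calls turned on single sham animals: without sham ZT1 replicate 1 the values were -0.38 (adjusted p = 0.0215) for Col1a2 and -0.46 (adjusted p = 0.0163) for Col1a1, which also passed without sham ZT19 replicate 4 (-0.44, adjusted p = 0.0299). The highest sham values of Col1a1, Col1a2 and Col3a1 were all in sham ZT1 replicate 4, a muscle-high library whose 12 fibroblast genes summed to 206101, against 73279 to 109120.3 in the other sham libraries. Their part in these genes' values was not tested.

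Of the remaining fibrillar genes, Col11a2, a chain of the cartilage fibril, rose after VSG (0.73 ± 0.15, 1.66-fold, adjusted p = 0.000465). It ran from 33.9 through 48.1 to 117 after sham surgery and from 47.6 through 79.0 to 207 after VSG. Its values were 116 to 207 in the 4 B-cell-high libraries and 33.9 to 110.0 in the other 28, and without those 4 it still rose (0.65, adjusted p = 0.000355). Of the cartilage markers Comp and Lect1 were testable and neither passed. Col27a1 (0.25, adjusted p = 0.067), Col24a1 (0.42, adjusted p = 0.123) and Col11a1 (0.57, adjusted p = 0.17) did not pass. Col11a1 was called without VSG ZT13 replicate 1 (0.76) and Col24a1 without VSG ZT19 replicate 3 (0.51). Col27a1 was called (0.28 to 0.29) without sham ZT1 replicate 1, sham ZT13 replicate 3, sham ZT19 replicate 4, VSG ZT1 replicate 2 or VSG ZT7 replicate 4.

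Type VI collagen, prominent around adipocytes, split by chain. Col6a1 (ENSMUSG00000001119) and Col6a2 (ENSMUSG00000020241), neighbours on chromosome 10, and Col6a3 on chromosome 1 encode the main trimer, and all fell. Col6a2 ran from 9447 through 23356 to 34749 after sham surgery and from 7081 through 11952 to 19817 after VSG, and fell 1.91-fold (-0.93 ± 0.16, adjusted p = 6.39e-05). Col6a1 ran from 9724 through 20804 to 30126 after sham surgery and from 8125 through 13211 to 19452 after VSG, and fell 1.57-fold (-0.65 ± 0.13, adjusted p = 0.000376). Every VSG value of both genes lay below the sham median. Col6a3, whose C-terminal fragment is the adipocyte product endotrophin, fell 1.83-fold (-0.87 ± 0.13, adjusted p = 2.55e-05).

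Col6a4, Col6a5 and Col6a6, a row of genes on chromosome 9 for chains that can stand in for that of Col6a3, did not follow as a group. Col6a6 fell (-0.64 ± 0.18, adjusted p = 0.00606), a call lost with the B cell and muscle marker means as covariates (-0.44, adjusted p = 0.0505). Col6a5 rose (0.75 ± 0.22, adjusted p = 0.00853), a call lost in the same way (0.58, adjusted p = 0.0504). Col6a4 (105989454 to 106096783) rose 2.86-fold (1.52 ± 0.57, adjusted p = 0.0353). Its lowest, median and highest values were 0, 3.26 and 194 after sham surgery and 1.09, 9.86 and 206 after VSG. The 4 B-cell-high libraries had 121 to 206 and the other 28 had 0 to 23.3, so the animals fall into 2 sets that are not the surgeries. Without those 4 the log2 fold change was 1.10 (adjusted p = 0.0217), with the covariates 0.67 (adjusted p = 0.159), and 13 of the 32 libraries ended the call when left out singly. The run without those 4 kept VSG ZT1 replicate 4, which had 15.3 and the highest B cell marker level of the other 28.

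The fibril-associated collagens coat fibrils without forming them. Col12a1 (ENSMUSG00000032332, chromosome 9, 79598991 to 79718831), known from tendon and other tissues under load, ran from 163 through 662 to 1028 after sham surgery and from 101 through 220.2 to 379 after VSG. All 16 VSG animals lay below the sham median and 12 below every sham animal but ZT19 replicate 4, and Col12a1 fell 2.39-fold (-1.26 ± 0.17, adjusted p = 7.45e-06). Col20a1 rose (0.45 ± 0.11, adjusted p = 0.00221), while Col14a1, Col16a1, Col22a1 and Col9a3 did not pass, with log2 fold changes from -0.37 to 0.30. Without sham ZT1 replicate 4 Col14a1 went from 0.22 to 0.44 and was called (adjusted p = 0.0392). Col16a1 was called without sham ZT1 replicate 1 (-0.46) or sham ZT19 replicate 4 (-0.45). Col9a3 was called (0.32 to 0.36) without sham ZT1 replicate 1, sham ZT19 replicate 2, VSG ZT1 replicate 2, VSG ZT7 replicate 1 or 2, VSG ZT13 replicate 2 or VSG ZT19 replicate 2. Col9a3 shares 234 exon bases with the opposite-strand gene Tcfl5.

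Among the rest, Col23a1, a transmembrane collagen, fell (-0.44 ± 0.08, adjusted p = 0.000188), and so did Col28a1, known from the sheath of peripheral nerves (-0.43 ± 0.10, adjusted p = 0.00101). Col7a1, which forms the anchoring fibrils under epithelia, rose (0.56 ± 0.12, adjusted p = 0.000993), with all 16 VSG animals above the sham median of 41.4. The only testable epithelial marker, Cdh1, was also higher (17.2 ± 11.4 in sham and 26.1 ± 8.75 in VSG animals), and of 7 Schwann cell markers 5 were higher and 1 lower, S100b. Of all tested genes 18.3% were higher and 20.9% lower. Col20a1 and Col28a1 were among the other collagens whose calls were lost without the libraries high in either marker list, at log2 fold changes of 0.41 and -0.36. Not all collagens that lost a call in that run are named here. Col8a1, Col13a1, Col17a1 and Col26a1 did not pass, with log2 fold changes from -0.20 to -0.08, and Col8a1 was called (-0.23) without sham ZT1 replicate 1 or 2 or VSG ZT7 replicate 1.

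Log2 ratios of 2 chains (each value + 1) within a library compare classes and partners directly, and library scaling cancels except for low genes such as Col4a6. Surgery was permuted within times (100000 resamples, two-sided), with adjustment over the 11 pairs computed of 12 listed, and 7 passed. Col4a1 fell relative to Col1a1 by 0.53 on the log2 scale (from 1.17 ± 0.47 to 0.64 ± 0.47, SD, n = 16 each, permutation adjusted p = 0.00587), with 15 of 16 VSG animals below the sham median. Col3a1 fell relative to Col1a1 by 0.38 (permutation adjusted p = 0.00473). For Col6a1 against Col1a1 the log2 difference was -0.28 (permutation adjusted p = 0.0356), a call that 12 of the 32 libraries ended when left out singly, with values from -0.35 to -0.23.

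Ratios between partners of a class also changed. Col15a1 fell relative to Col18a1 by 0.56 (from 1.05 ± 0.36 to 0.49 ± 0.36, permutation adjusted p = 0.0005), and all 16 VSG animals lay below the sham median of that log2 ratio. Col6a1 rose relative to Col6a2 by 0.28 (from -0.19 ± 0.16 to 0.09 ± 0.14, permutation adjusted p = 0.0005), with 15 of 16 VSG animals above the sham median. Smaller shifts were a fall of Col6a3 relative to Col6a1 by 0.22 (permutation adjusted p = 0.00587) and a rise of Col5a1 relative to Col5a2 by 0.19 (permutation adjusted p = 0.0059).

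The remaining 4 ratios did not pass. The log2 ratio of Col1a1 to Col1a2 changed by -0.06 (from -0.06 ± 0.27 to -0.11 ± 0.22, permutation adjusted p = 0.507) and that of Col4a1 to Col4a2 by 0.07 (from 0.23 ± 0.12 to 0.30 ± 0.12, permutation adjusted p = 0.142). Col4a3 to Col4a4 changed by -0.12 (permutation adjusted p = 0.288) and Col4a5 to Col4a6 by -0.43 with a spread of 0.66 (permutation adjusted p = 0.0883).

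**Figure D3:**
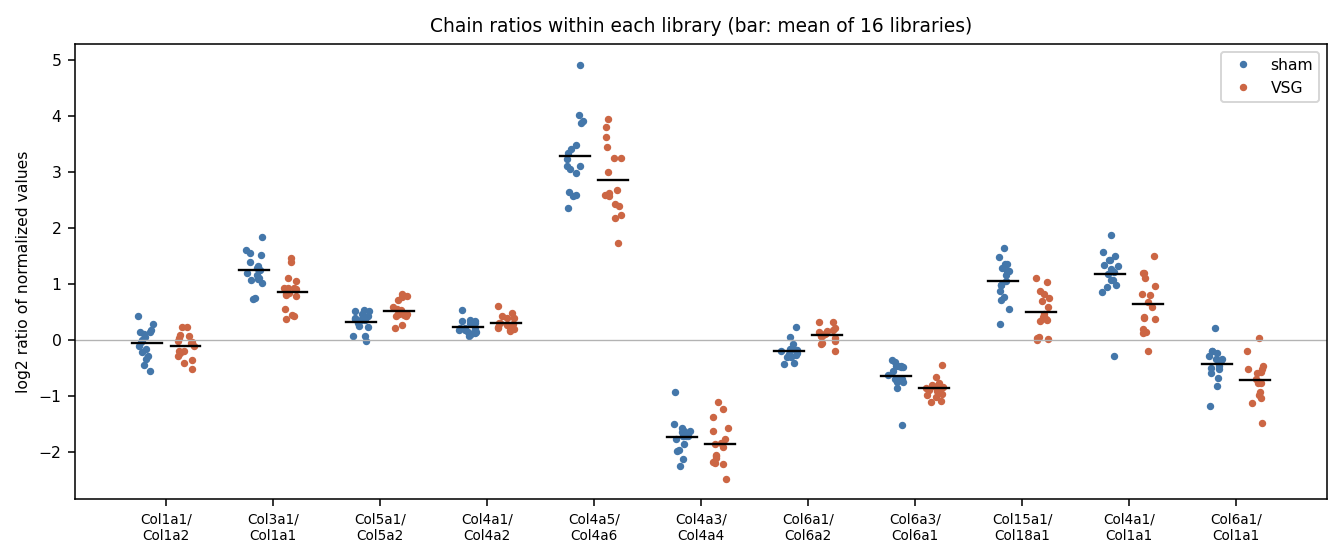
Log2 ratio of the normalized values (each + 1) of 11 pairs of chains in each of the 32 libraries (16 per surgery, bars at the mean). Col15a1/Col18a1 averages 1.05 after sham surgery and 0.49 after VSG, and Col6a1/Col6a2 -0.19 and 0.09, while Col1a1/Col1a2 averages -0.06 and -0.11.

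By time of day, collagens differed between the surgeries at ZT1, ZT7 and ZT13, with 4 animals against 4 each. At ZT7 12 of 37 were lower and none higher, where 3.36% of all tested genes were lower. They were Col3a1, Col5a1, Col5a2, Col4a1 to Col4a4, Col6a1 to Col6a3, Col12a1 and Col15a1. At ZT13 11 were lower, against 5.72% of all tested genes. These were Col4a1 to Col4a4, Col15a1, Col18a1, Col5a2, Col5a3, Col6a3, Col12a1 and Col23a1. At ZT1 Col4a1, Col4a4 and Col28a1 were lower and Col7a1 and Col11a2 higher, against 4.34% of all genes lower and 1.17% higher. Without the B-cell-high libraries the ZT1 count was 0, with only VSG replicates 2 and 4 left there, and the ZT13 count was 2. Without the muscle-high libraries the ZT13 count was 1. Without both sets the ZT13 count was 0, with only VSG replicates 2 and 4 left. At ZT1 VSG replicate 4 alone was then left, too few for a count. At ZT19 0 collagens passed in limma, edgeR or DESeq2, where limma called 0% of all genes. Of the 37 collagens 7 had an unadjusted p under 0.05, led by Col23a1 (-0.53, adjusted p = 0.617). Of all 15588 tested genes 1072 had such a p. With array weights, which count variable libraries for less, the calls were 18 at ZT1, 22 at ZT7, 21 at ZT13 and 7 at ZT19. The share of all genes called with array weights is not given here, so these counts are no result about collagens.

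Col4a3 shows the pattern. At ZT7 the sham animals had 56.2, 59.7, 99.1 and 73.2 and the VSG animals 33.3, 17.2, 17.3 and 14.3. At ZT13 they had 54.9, 47.0, 48.6 and 54.3 against 8.46, 16.4, 17.5 and 17.2. The groups did not overlap at either time (log2 fold changes -1.80 ± 0.35, adjusted p = 0.0105, and -1.76 ± 0.35, adjusted p = 0.00786). At ZT1 the sham animals had 32.5, 50.3, 59.4 and 65.0 against 21.4, 15.3, 23.4 and 50.6, and at ZT19 52.7, 42.8, 41.1 and 22.3 against 13.3, 43.2, 22.8 and 21.3. At both of these times the groups overlapped and the difference did not pass.

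Col4a1 differed at ZT1, ZT7 and ZT13. At ZT7 the sham animals had 74967, 72691, 59473 and 52233 and the VSG animals 35546, 24129, 30258 and 29064 (-1.12 ± 0.25, adjusted p = 0.0136). At ZT19 the sham animals had 67959, 56258, 67686 and 28381 and the VSG animals 32049, 34271, 36404 and 40137. The last of these sham animals lay below all 4 VSG animals and the other 3 above them. Without it, ZT19 still had no called collagen.

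Col3a1 had its largest difference at ZT7, where the sham animals had 86831, 64248, 94095 and 61555 and the VSG animals 43787, 21144, 31627 and 21914 (-1.41 ± 0.28, adjusted p = 0.0105). At ZT1, where it did not pass, the sham animals had 46901, 59471, 70459 and 102298 and the VSG animals 40904, 52386, 43289.9 and 64745. The type I chains had log2 fold changes of -0.86 (Col1a1) and -0.89 (Col1a2) at ZT7 and of -0.02 and 0.03 at ZT1. No such value passed at a single time.

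By animal, in the order of replicates, the other most abundant or most changed genes were as follows. For Col4a1 at ZT1 the sham animals had 47708, 81532, 85586 and 39860.4 against 26215, 35424, 25324 and 41086 after VSG. The ZT13 values of Col4a1 were 61147, 52695, 72221 and 70489 (sham) and 28926, 40396, 34552 and 29003 (VSG). The groups overlapped at ZT1, by a sham and a VSG animal, and stood apart at ZT13. Col4a2 at ZT1 gave 37815, 77449.6, 75654 and 31318 in sham animals, and 20162, 31904, 20681 and 35097 in those with VSG. At ZT7 Col4a2 was 64853, 65749, 48255 and 46112 in the sham and 30353, 21109.9, 26811 and 23609.8 in the VSG animals. These overlapped at ZT1 and stood apart at ZT7. For Col4a2 at ZT13 the sham animals had 53434, 42608, 62737 and 65164 against 19009, 35109, 29668 and 21703 after VSG. The ZT19 values of Col4a2 were 63707, 51009, 53469 and 19744 (sham) and 26241, 26221, 30431 and 28827 (VSG). As for Col4a1, the sham animal replicate 4 of ZT19 lay below all 4 VSG animals of that time.

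Col15a1 had its groups apart at ZT7 and ZT13. For Col15a1 at ZT1 the sham animals had 22291, 31495, 37490.4 and 11369 against 6625, 10554, 8583 and 16325 after VSG. The ZT7 values of Col15a1 were 34531, 29471, 26979 and 25260.3 (sham) and 17386, 10706, 8145 and 8238 (VSG). The groups overlapped at ZT1 through sham replicate 4 and VSG replicate 4 and stood apart at ZT7. Col15a1 at ZT13 gave 22275, 20487, 30598 and 33164 in sham animals, and 5063, 17143, 12167 and 7436 in those with VSG. At ZT19 Col15a1 was 29119, 22420.3, 26353 and 7630.0 in the sham and 8248, 16624, 15115 and 10906 in the VSG animals. They stood apart at ZT13, and at ZT19 the lowest of all 8 was again sham replicate 4.

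Col3a1 at the remaining times and Col5a2 at all times gave these values. The ZT13 values of Col3a1 were 54287, 44150.0, 75862 and 60309 (sham) and 24154, 40187, 42685 and 31267 (VSG). Col3a1 at ZT19 gave 55053, 47558, 91697 and 34778 in sham animals, and 37471, 39438, 51286 and 38842 in those with VSG. Col3a1 stood apart at ZT13 but did not pass there (-0.77 ± 0.28, adjusted p = 0.0689), and overlapped at ZT19. At ZT1 Col5a2 was 6433, 9056, 8888 and 9664 in the sham and 4271, 5597, 4726 and 7476 in the VSG animals. For Col5a2 at ZT7 the sham animals had 9548, 8897, 8978 and 7839 against 5576, 3041, 4088 and 3102 after VSG. VSG replicate 4 of ZT1 lay above sham replicate 1, and at ZT7 every VSG animal was below every sham animal. The ZT13 values of Col5a2 were 8908, 8177, 10368 and 8645 (sham) and 3314, 5651, 5803 and 4078 (VSG). Col5a2 at ZT19 gave 9164, 8545, 9559 and 4472 in sham animals, and 4817, 5129.5, 6218 and 5850.3 in those with VSG. The ZT13 groups stood apart too, and at ZT19 3 sham animals lay above all VSG animals and replicate 4 below them.

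Col5a3 varied more among animals. For Col5a3 at ZT1 the sham animals had 16122, 23089, 32770.4 and 12985 against 7164, 12125, 10734 and 21628 after VSG. The ZT7 values of Col5a3 were 32438, 23526, 19466 and 20223 (sham) and 14652, 10437, 9351 and 5642 (VSG). The ranges overlapped at ZT1 and not at ZT7. Col5a3 at ZT13 gave 22179, 13373, 23432 and 24855 in sham animals, and 3188, 16190.0, 8724 and 6406 in those with VSG. At ZT19 Col5a3 was 26585, 18200.3, 26533 and 7368 in the sham and 9207, 15014, 12294 and 13049.5 in the VSG animals. They overlapped at ZT13, where VSG replicate 2 lay above sham replicate 2, and at ZT19 through sham replicate 4.

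Col1a2 stood apart by surgery at a single time. At ZT1 Col1a2 was 16683, 31259, 23755 and 66900.2 in the sham and 26341, 34596, 26451 and 37039 in the VSG animals. For Col1a2 at ZT7 the sham animals had 36705, 24521, 36192 and 26918 against 21275, 12169.9, 19971 and 14330.4 after VSG. At ZT1 the lowest and the highest of the 8 were both sham animals, and at ZT7 all VSG animals were below all sham animals. The ZT13 values of Col1a2 were 26088, 21534, 32806 and 25513 (sham) and 18236, 23463, 32307 and 22075 (VSG). Col1a2 at ZT19 gave 24428, 23564, 34993 and 17505 in sham animals, and 20299, 19236, 26868 and 18978 in those with VSG. At ZT13 and ZT19 the groups overlapped.

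The type VI chains Col6a1 and Col6a2 also stood apart at ZT7 and overlapped at the other times. Col6a2 at ZT1 gave 15969, 34198, 33328 and 18347 in sham animals, and 9041, 14102, 10266 and 19817 in those with VSG. At ZT7 Col6a2 was 34749, 28746, 23249 and 22776 in the sham and 13536, 8527, 13201 and 9024 in the VSG animals. At ZT1 only VSG replicate 4 reached the sham range. For Col6a2 at ZT13 the sham animals had 19936, 15177, 23463 and 26971 against 7081, 15384, 14181 and 10815 after VSG. The ZT19 values of Col6a2 were 26115, 19283, 28573 and 9447 (sham) and 11586, 12175, 15397 and 11729.7 (VSG). At ZT13 VSG replicate 2 lay just above sham replicate 2, and at ZT19 sham replicate 4 was lowest. Col6a1 at ZT1 gave 15213, 25593, 27711 and 21493 in sham animals, and 10430.0, 14479, 11111 and 19452 in those with VSG. At ZT7 Col6a1 was 30126, 21358, 20625 and 20127 in the sham and 14208, 8125, 13738 and 10039 in the VSG animals. Col6a1 repeated this, with VSG replicate 4 inside the sham range at ZT1. For Col6a1 at ZT13 the sham animals had 16856, 13584, 20618 and 21832 against 8827, 13345, 16004 and 11914 after VSG. The ZT19 values of Col6a1 were 20983, 16084, 25465 and 9724 (sham) and 11153, 13077, 16195 and 14561 (VSG). At ZT13 VSG replicate 3 lay above sham replicate 2, and at ZT19 sham replicate 4 was again lowest.

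Col12a1 stood apart at 3 of the 4 times. For Col12a1 at ZT1 the sham animals had 488, 826, 683 and 1024 against 328, 379, 338 and 312 after VSG. The ZT7 values of Col12a1 were 723, 677, 661 and 369 (sham) and 277, 101, 216 and 153 (VSG). Every VSG animal was below every sham animal at both times, although ZT1 did not pass. Col12a1 at ZT13 gave 422, 434, 662 and 1028 in sham animals, and 250.1, 222, 278 and 205 in those with VSG. At ZT19 Col12a1 was 744, 299, 339.7 and 163 in the sham and 169.8, 166, 218 and 187 in the VSG animals. The groups stood apart at ZT13 and overlapped at ZT19, where sham replicate 4 was the lowest of all.

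Col6a4, which rose over all times, was low in most animals. The ZT1 values of Col6a4 were 194, 3.43, 3.09 and 5.60 (sham) and 121, 6.13, 206 and 15.3 (VSG). Col6a4 at ZT7 gave 4.93, 2.54, 4.07 and 1.08 in sham animals, and 7.93, 5.72, 8.65 and 14.3 in those with VSG. The ZT1 values over 100 were those of the B-cell-high libraries, and at ZT7, where no library was high in B cell markers, every VSG value was above every sham value. At ZT13 Col6a4 was 2.79, 0.98, 3.92 and 5.43 in the sham and 124, 1.09, 23.3 and 6.02 in the VSG animals. For Col6a4 at ZT19 the sham animals had 0, 2.81, 3.08 and 11.1 against 12.3, 2.76, 11.1 and 5.60 after VSG. At ZT13 the highest VSG value was the B-cell-high library, and at ZT19 the groups overlapped.

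**Figure D4:**
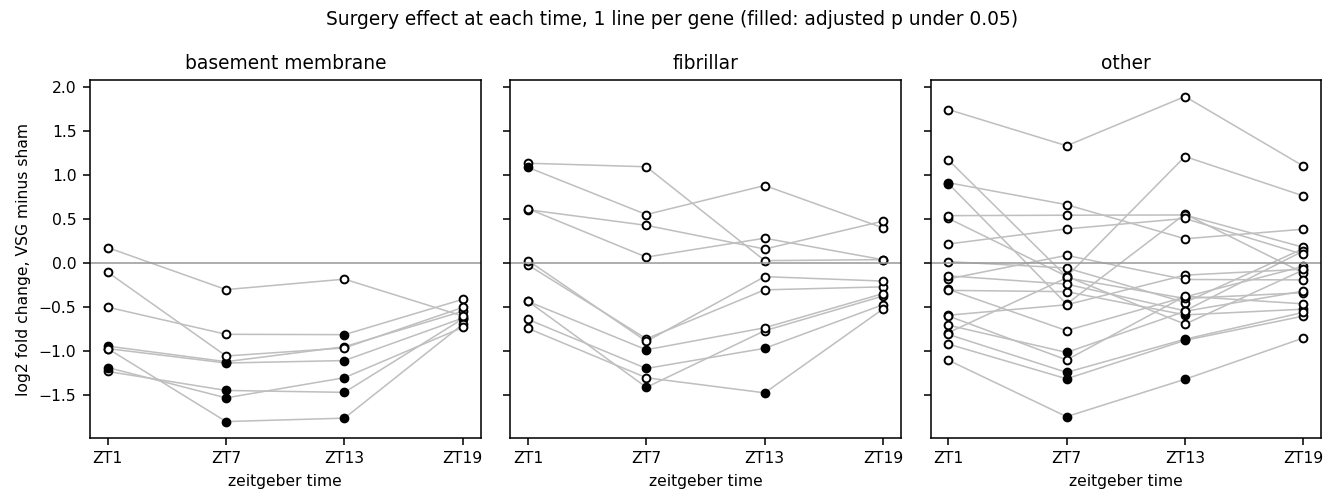
Log2 fold change (VSG minus sham) of each tested collagen at ZT1, ZT7, ZT13 and ZT19, 1 line per gene, in 3 classes, with filled points at an adjusted p under 0.05. Points are filled at the first 3 times and at none at ZT19, where basement membrane genes lie between -0.73 and -0.41.

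The difference between times was itself tested. No collagen passed the interaction of surgery and time in limma, edgeR or DESeq2, nor did any gene in limma (0%). In limma 1 of the 37, Col3a1, had an unadjusted p under 0.05, as had 225 of the 15588 tested genes. The counts at single times depended on single animals. The ZT1 count of 5 became 16 without sham replicate 1, 9 without sham replicate 4, 11 without VSG replicate 4 and 0 without sham replicate 2 or 3 or VSG replicate 1 or 3, all at ZT1, and 11 without sham ZT19 replicate 4. The ZT7 count became 4 without sham replicate 1 or VSG replicate 4 and 7 without sham replicate 2 or VSG replicate 2 or 3. The ZT13 count became 1 without VSG replicate 1, 2 and 4 without sham replicates 3 and 4, and 5 and 3 without VSG replicates 3 and 4. Leaving out any other library kept the counts of these times within 1.5 times.

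Within a surgery few collagens changed with time of day. Among sham animals 2 of 37 passed, against 1.64% of all genes. Col13a1, a transmembrane collagen, had 44.5, 20.6, 86.4 and 24.6 at ZT1 and 102 to 140.4 at ZT13 (adjusted p = 0.0409). Col28a1 had 200.2 to 302 at ZT7 and 333 to 566 at ZT13 (adjusted p = 0.0448), without overlap between those times. Among VSG animals 0 passed in limma, against 1.52% of all genes. An unadjusted p under 0.05 was found for 8 of the 37 collagens and for 3306 of the 15588 tested genes. At an adjusted p under 0.05 edgeR called 2 and DESeq2 4, given without the share of all genes. The smallest limma p among VSG animals were those of Col6a5 (adjusted p = 0.0609) and Col28a1 (adjusted p = 0.0617). Col28a1 had 171 to 283 at ZT7 and 309 to 394 at ZT19 in these animals. The sham calls changed when 23 of the 32 libraries were left out singly, and a 24 h cosine called none.

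VSG animals had a weight loss of 16.6 ± 3.81 (SD, n = 16), from 10.59 to 23.12, and sham animals one of 4.97 ± 2.03 (SD, n = 16), from 2.15 to 8.96. Weight loss thus cannot be told apart from surgery except within a group. Among VSG animals, with a mean per time, 2.71% of all 15588 genes had a slope on weight loss, 147 falling and 276 rising. Of the 37 collagens 3 fell with weight loss and none rose. These were Col4a4 (slope -0.13 ± 0.02 log2 units per unit of weight loss, adjusted p = 0.0223), Col5a3 (-0.13 ± 0.03, adjusted p = 0.0417) and Col4a3 (-0.12 ± 0.03, adjusted p = 0.0388). All 8 basement membrane genes had slopes below 0, as had 27 of the 37 collagens and 7877 of the 15588 tested genes. Of the 18 genes lower over all times, the others did not pass.

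The 4 VSG animals with the least weight loss (10.59 to 13.41) had Col4a4 values of 131, 101, 111 and 128. The 4 with the most (19.57 to 23.12) had 67.4, 50.3, 39.9 and 39.1, so that these ends did not overlap. For Col4a3 the same animals had 43.2, 21.3, 50.6 and 33.3 against 15.3, 13.3, 8.46 and 14.3. All 3 calls were lost without the 2 VSG animals whose weight loss lay farthest from the median, where the Col4a4 slope was -0.12. They were also lost without the B-cell-high libraries (Col4a4 slope -0.12) or the muscle-high libraries (-0.16). The count became 0 without VSG ZT7 replicate 4, ZT13 replicate 1 or either of ZT19 replicates 1 and 2. It became 1 without ZT1 replicate 1 or 4, ZT7 replicate 1, ZT13 replicate 2, 3 or 4 or ZT19 replicate 3.

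Among sham animals no collagen slope passed in limma, against 0.00642% of all genes. Calls were 0 in edgeR and 3 in DESeq2, given without the share of all genes. In limma 12 collagens had an unadjusted p under 0.05, as had 2436 of the 15588 tested genes. The smallest adjusted p-values were 0.12 for Col14a1 (slope 0.32 ± 0.09), 0.121 for Col4a5 (0.21 ± 0.06) and 0.154 for Col15a1 (-0.19 ± 0.06). The slopes differed between the surgeries for 1 collagen, Col4a5, against 0.616% of all genes (VSG minus sham -0.28 ± 0.06, adjusted p = 0.0382). Col4a5 was 318 in sham ZT1 replicate 4, the sham animal with the greatest weight loss (8.96) and a muscle-high library, and 80.3 to 209 in the other sham animals. Without that animal the difference was -0.14 and the call was lost. The count also became 0 without sham ZT1 replicate 1 or 3, sham ZT7 replicate 2 or 3 or VSG ZT7 replicate 4, ZT13 replicate 1 or ZT19 replicate 1, and 2 without sham ZT19 replicate 1 or 4.

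**Figure D5:**
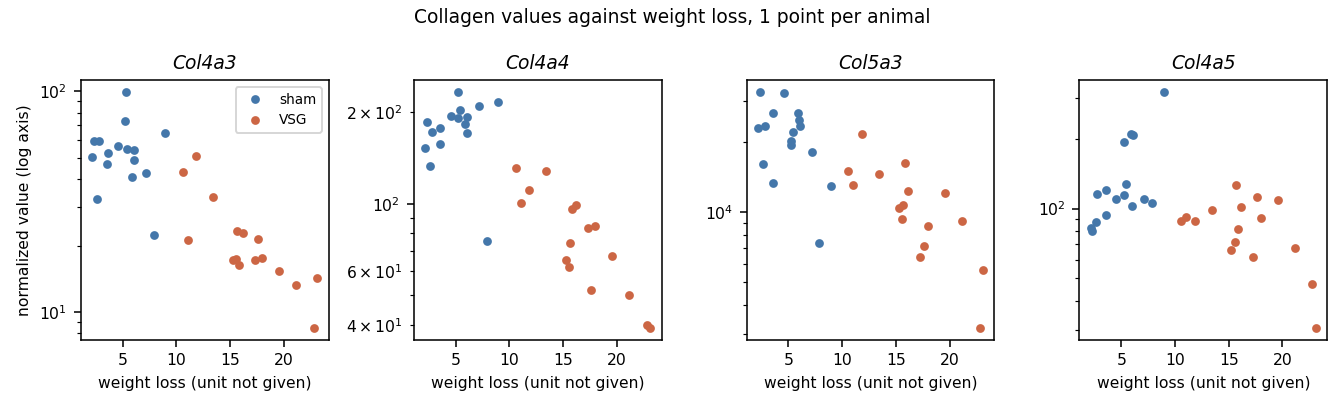
Normalized value (log axis) of Col4a3, Col4a4, Col5a3 and Col4a5 against the weight loss of each animal (16 points per surgery; unit of weight loss not given). Col4a4 in VSG animals runs from 131 at a weight loss of 10.59 to 39.1 at 23.12, and the highest Col4a5 value, 318, is the sham animal with a weight loss of 8.96.

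Other genes that make and handle collagen were counted by list, again over all times and with adjusted p-values over all genes. Of 19 tested genes for folding and modification 8 were lower and 1 higher. Serpinh1, the collagen chaperone HSP47, fell 1.71-fold (-0.78 ± 0.13), P3h1, a prolyl 3-hydroxylase, 1.59-fold (-0.67 ± 0.10) and Creb3l1, a transcription factor for secretory genes, 1.36-fold (-0.44 ± 0.12), while P3h4 rose (0.35 ± 0.11). Crosslinking enzymes, which join chains outside the cell, had 3 of 5 lower: Lox (2.03-fold, -1.02 ± 0.12), Loxl2 (1.71-fold, -0.77 ± 0.13) and Loxl4 (1.53-fold, -0.62 ± 0.20). Of 6 processing genes 3 were lower, among them Pcolce2, an enhancer of propeptide cleavage (3.17-fold, -1.67 ± 0.21), Adamts2 (1.58-fold) and Bmp1 (1.32-fold), and Tll1 was higher (0.30 ± 0.10).

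Basement membrane partners of type IV collagen had 8 of 15 lower and none higher. Lamb3, a laminin chain, fell 2.79-fold (-1.48 ± 0.16), Nid2, which bridges laminin and collagen IV, 2.27-fold (-1.19 ± 0.18) and Hspg2, the proteoglycan perlecan, 1.58-fold (-0.66 ± 0.13). Of 11 genes of TGF-beta signalling, an inducer of fibrillar collagens, 5 were lower and 1 higher: the target Ctgf (2.02-fold), the ligand Tgfb2 (1.33-fold) and the signal transducer Smad2 (1.27-fold) fell, and the receptor Tgfbr2 rose (1.25-fold). These counts stand beside the 20.9% lower and 18.3% higher of all genes.

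Of 8 collagen receptors 3 were lower, Mrc2, which takes up collagen fragments (1.93-fold), Ddr1 (1.77-fold) and Itgb1 (log2 fold change -0.26), and 2 higher, the immune inhibitory receptor Lair1 (1.76-fold) and Itga10 (1.22-fold), beside the same 20.9% and 18.3% of all genes. Of 7 collagen-degrading enzymes, Mmp8 (12.0-fold) and Mmp9 (4.55-fold), which neutrophils carry, rose, and Mmp13 (1.97-fold) and Fap (1.43-fold) fell. All 10 neutrophil markers and 9 of 10 macrophage markers were higher, with summed neutrophil levels of 129 to 862 in sham and 458 to 17231 in VSG animals. Their part in the enzymes' levels was not tested.

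Markers of cells that can make collagen were counted beside the 39.2% of all genes that differed. Of 12 fibroblast and progenitor markers 4 were lower (Dpt, Lum, Mfap5 and Thy1) and 1 higher (Ly6a), while Pdgfra had a log2 fold change of -0.04 (adjusted p = 0.832). Their summed level was 73279 to 206101 after sham surgery and 53047 to 106725 after VSG. Of 8 pericyte and smooth muscle markers 4 were lower (Rgs5, Acta2, Cspg4 and Notch3), with summed levels of 27237 to 51310.2 and 17475 to 39761. Of 10 endothelial markers 1 was lower and 1 higher (sums of 52492 to 91126 and 50071 to 86090) and of 10 adipocyte markers 2 were lower and 1 higher. These marker genes were named after their values were seen, none was at 0 in a group mean, and their part in the collagen differences was not tested.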

How the data were processed

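RNA was sequenced from the subcutaneous fat of 32 mice, 4 in each of 8 groups of surgery and time taken from the labels, with replicates numbered in accession order. Per the labels' protocols, RNA was taken with Trizol and libraries were made with the TruSeq RNA kit, version 2. The submitters' processing notes name the build mm10 and, without their roles, DESeq2 1.24.0, R 3.6.3, featureCounts 1.5.0-p1, STAR 2.5.2a and bcl2fastq 2.17.1.14. The values in the deposited table are a signal, read here as counts scaled by a size factor: 100% were whole multiples of a step of each library within 0.001, which gave back whole reads (15.7 to 37.2 in units of 1e6). Within groups, 48 pairs of libraries differed with a chi-square of 19.6 to 172 per degree of freedom, so each library counts singly. P-values measure the spread between these animals.

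Genes with a mean of at least 10 (15588) were fitted as log2(value + 1) with limma 3.58.1 in R 4.3.3 with a mean-variance trend, with Benjamini-Hochberg adjustment over all of them. Group means gave the surgery, time and interaction tests (F tests with 3 degrees of freedom for time and interaction). Slopes on weight loss had a mean per time. Chain ratios used a permutation test. Alternatives included edgeR 4.0.16 and DESeq2 1.42.0 on whole reads, which called 6115 and 6558 genes over all times where limma called 6108, and leaving out each library. The steps were tested on simulated counts. Leaving out the libraries high in either marker list together was chosen after seeing these data, and the members, classes and lists were chosen with earlier results of these data known. Values in full are given for the 2 most abundant and the 2 most changed genes of each class; other called genes are named. Levels per kilobase use GENCODE M21 exon lengths. Col2a1, Col9a1, Col19a1, Col21a1 and Col25a1 are not analysed here. A gene of the TGF-beta list is not reported here.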

Additional observations from a re-analysis of the deposited data

Results flagged for a closer look

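Of 200 groups of 4 animals examined for a value far from the other 3, 10 held such a value, which is about the 1 in 20 that chance gives. On the log2(value + 1) scale, the lowest Col4a3 value of VSG ZT13 (replicate 1) was 3.24 where the others had 4.12 to 4.21. The highest Col3a1 value of VSG ZT19 (replicate 3) was 15.65 against 15.19 to 15.27. Col5a2 in sham ZT19 replicate 4 was 12.13 against 13.06 to 13.22. Col6a1 in sham ZT7 replicate 1 was 14.88 against 14.30 to 14.38. Col6a4 in sham ZT1 replicate 1, a library high in B cell markers, was 7.61 against 2.03 to 2.72. Col12a1 in sham ZT7 replicate 4 was 8.53 against 9.37 to 9.50.

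Among log2 chain ratios, Col1a1/Col1a2 was 0.23 in VSG ZT1 replicate 2 against -0.23 to -0.20, Col6a1/Col6a2 was -0.43 in sham ZT7 replicate 2 against -0.21 to -0.17, and Col6a3/Col6a1 was -0.45 in VSG ZT13 replicate 2 against -0.92 to -0.84. The weight loss of sham ZT1 replicate 4 was 8.96, where the other 3 sham animals of ZT1 had 2.15 to 2.63. The slope of Col4a5 on weight loss differed between the surgeries by -0.28 (adjusted p = 0.0382 in limma). The call was lost in 8 of the 32 runs with a single library left out, that animal's among them.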

How the results depend on the processing

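No result changed direction under any alternative run. Over all times the collagen count was 16 to 28 under the other settings and 22 to 29 when each library was left out. For basement membrane genes it was 6 or 7 of 8 where all 8 were tested, and for fibrillar genes it was 4 to 7, with 4 without the libraries high in either marker list, and 5 to 8 over left-out libraries, with 8 without sham ZT1 replicate 1. For other collagens it became 6 without the libraries high in either marker list. The ZT1 count of 5 was 18 with array weights, 8 with edgeR and 13 with DESeq2. It was 0 with marker covariates, without the B-cell-high libraries or with that time alone. The ZT7 count of 12 was 22 with array weights. The ZT13 count of 11 was 21 with array weights, 17 with DESeq2, 2 and 1 without the B-cell-high or muscle-high libraries and 0 without both. The ZT19 count of 0 was 7 with array weights. Counts under these settings and over left-out libraries, and those of time and slope below, are given without the share of all genes. They are no result about collagens. Leaving out single libraries gave 0 to 16 at ZT1, 4 to 18 at ZT7 and 1 to 16 at ZT13.

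The 2 time calls among sham became 1 with quantile normalization, array weights or edgeR, 4 with DESeq2 and 0 with covariates, the cosine or any marker set left out (0 to 2 over left-out libraries). Among VSG 0 became 1 with quantile normalization or covariates, 2 with edgeR and 4 with DESeq2 (0 to 2). The 3 VSG weight slopes became 6 with array weights, 5 with DESeq2 and 0 without either or both marker sets or the 2 farthest animals (0 to 4). Sham slopes became 3 with DESeq2 and 4 with covariates (0 to 1). The 1 slope difference became 2 with DESeq2, 4 with covariates and 0 without either or both marker sets or the 2 farthest VSG or sham animals (0 to 2).

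The ratio Col4a5/Col4a6 passed at -0.46 with a pseudocount of 5 (-0.54 to -0.33 over left-out libraries, passing at -0.54 without VSG ZT13 replicate 2). Calls were lost for Col6a3/Col6a1 (-0.17) and Col6a1/Col1a1 (-0.25) without the B-cell-high libraries, Col5a1/Col5a2 (0.15) without the muscle-high and Col3a1/Col1a1 (-0.29) without both. Col6a1/Col1a1 ran from -0.35 to -0.23 over left-out libraries. The cause of these changes was not tested. No paired analysis was possible because replicate numbers were given in accession order and pair no animals. Genes with means near 10 rest on few reads, which limits the precision of Col4a6, Col11a1 and Col24a1.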
